A study of Equus caballus with 15 samples.

Results

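The IL-4 and IL-13 response genes examined here were 10 genes chosen by symbol, namely the receptor chains IL4R and IL13RA1, the transcription factor PPARG, the lectin receptors MRC1, FCER2 and CLEC10A, and the enzymes TGM2, ALOX15, F13A1 and ARG1. A row of that symbol was found for 8 of the 10 among 16932 genes, and 5 of these 8 had a mean of at least 1 CPM, the read count scaled to a common library total, over 15 libraries. CLEC10A and ARG1 were not analysed here. Macrophages were grown from equine blood mononuclear cells of 2 horses, not named per library, in human M-CSF at 30 ng/ml for 5 days. They were left untreated or given IL-1ß at 10 ng/ml for 24 h, alone or together with an orthobiologic therapy (OT) that made up 25% of the culture medium. The OTs were conditioned medium of bone marrow mesenchymal stromal cells (MSC-CM), a lysate made from platelet rich plasma (PRP lysate), and ACS, which is autologous conditioned serum. Each of the 5 conditions had 3 libraries. The 3 libraries of each OT came from the same 3 horses, which were the donors of all products, while the untreated and the IL-1ß libraries are called technical replicates in the study, so p-values measure the spread between these libraries. The sample descriptions place RNA collection right after the wash, whereas the study's methods give 24 h of further culture.

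IL-4 and IL-13 are T helper 2 cytokines that signal through shared receptor chains. IL-4 binds IL4R, which pairs with IL2RG or with IL13RA1, and IL-13 binds IL13RA1, which pairs with IL4R. Both complexes activate JAK kinases and STAT6, and in macrophages this turns on the alternative activation program, in which mannose receptor, transglutaminase, lipoxygenase and arginase genes are classical markers.

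The libraries held between 28410735 and 47894077 reads counted on genes. The first principal component took 55.4% of the variance, and IL-1ß replicate 3 (score -103), PRP lysate replicate 1 (-51.7) and MSC-CM replicate 1 (-20.7) stood apart from the others (-8.15 to 26.6). Of 18 macrophage marker genes, 15 that are not members were summed. The sum had its lowest median with PRP lysate, at 4256 to 5477 CPM, a range that overlapped those of MSC-CM and ACS. It lay between 5133 and 6782 CPM in the other conditions. CD74 and CD68 made up most of it, at 2907 and 1674 CPM on average. CSF1R averaged 343 CPM, but CD14 averaged 2.49 CPM and MARCO 2.89 CPM. T cell RNA was present throughout, with CD3E at 140 to 521 CPM. In bulk RNA, fewer cells of a type and less RNA per cell cannot be told apart.

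TGM2 was the only one of the 5 tested members that was called changed in any of 7 comparisons. It was lower with PRP lysate than with IL-1ß alone, MSC-CM or ACS, by 2.95- to 3.76-fold in mean CPM. IL4R hardly varied across the 15 libraries. PPARG was lower in all 12 libraries that had received IL-1ß than in the 3 untreated ones, but was not called. For IL-1ß against untreated its fold change was under 2 and its adjusted p was 0.203 in limma. MRC1 and IL13RA1 varied more between libraries of a condition than between conditions. A gene was called at an adjusted p of at most 0.05 in limma on log2(CPM + 1), with Benjamini-Hochberg adjustment over 11628 genes, and a fold change of at least 2.

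**Figure D1:**
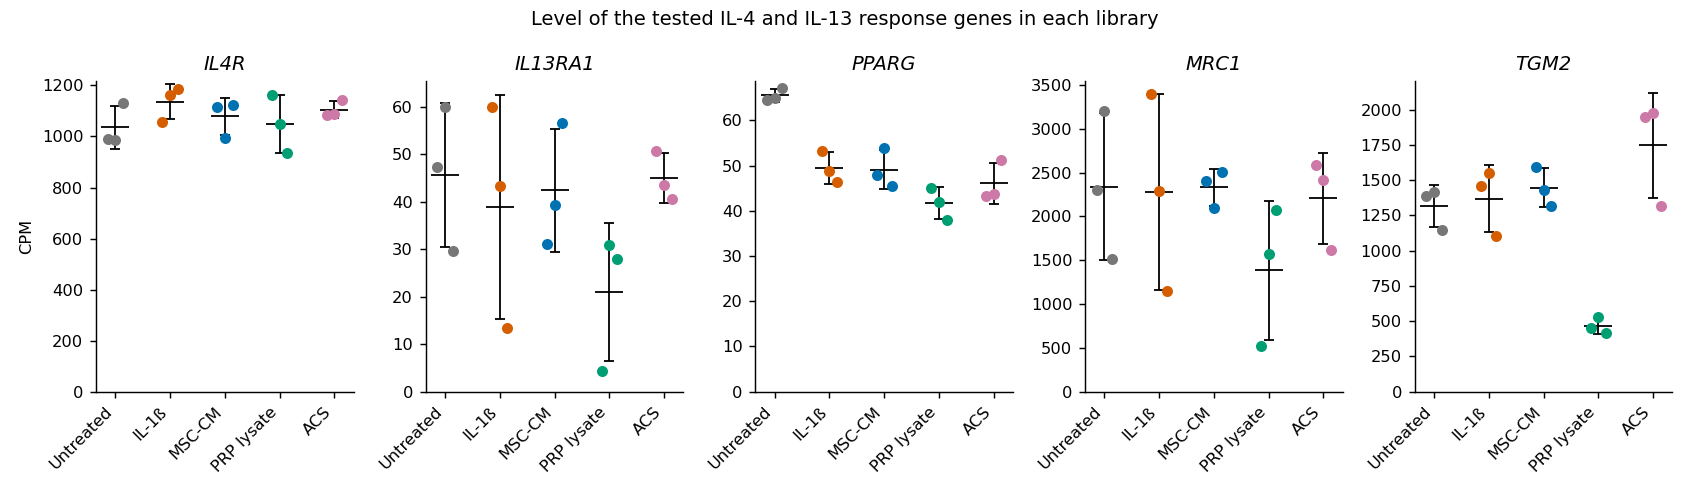
Level in CPM (y axis, from 0, with a scale of its own in each panel) of the 5 tested members in each library, by condition (x axis). Points are libraries, and the horizontal mark and bars are the mean and SD over 3 libraries. The 3 PRP lysate libraries of TGM2 lie between 417 and 528 CPM, below all others, and the 3 untreated libraries of PPARG lie above all others.

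IL4R, the alpha chain that both cytokines need (ENSECAG00000021525, chromosome 13, 21808398 to 21910041 in EquCab3.0), was at 991.5, 984.5 and 1133 CPM in the untreated libraries and at 1057, 1164 and 1185 CPM with IL-1ß. It was at 1117, 995 and 1124 CPM with MSC-CM, at 1164, 1050 and 937 CPM with PRP lysate, and at 1084, 1087 and 1144 CPM with ACS. All 5 conditions overlapped, and the highest library was 1.27-fold above the lowest. The largest log2 fold change of IL4R in the 7 comparisons was 0.13 ± 0.109 (SE) for IL-1ß against untreated, with a 95% interval of -0.10 to 0.37. The interval for PRP lysate against IL-1ß was -0.35 to 0.12, and that for ACS against IL-1ß was -0.27 to 0.20. A change of IL4R as large as 2-fold lay outside all 7 intervals.

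IL13RA1, the chain that binds IL-13 (ENSECAG00000019115, chromosome X, 98048186 to 98099653), was at 47.2, 59.9 and 29.7 CPM in untreated macrophages and at 60.0, 43.3 and 13.5 CPM with IL-1ß. MSC-CM gave 31.2, 39.4 and 56.5 CPM, PRP lysate 4.38, 30.9 and 27.9 CPM, and ACS 50.8, 43.5 and 40.6 CPM. The lowest value belonged to PRP lysate replicate 1 and the next to IL-1ß replicate 3, both among the libraries that stood apart, and the range over all libraries was 13.7-fold. PRP lysate lay below MSC-CM and below ACS without overlap. None of these differences was called. The log2 fold change of ACS against PRP lysate was 1.42 ± 0.627 (SE), with an adjusted p of 0.842 in limma. Without the 3 libraries apart it was 0.59 ± 0.248, with an adjusted p of 0.494, and it was also 0.59 without PRP lysate replicate 1 alone.

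Of the receptor and signaling list, which holds these chains, IL2RG, the JAK kinases, STAT6 and their feedback genes, 15 of 18 genes were tested. In limma 0 of the 15 were called in each of the 7 comparisons. At an unadjusted p of at most 0.05 and a 2-fold change there was 1 gene each in ACS against IL-1ß and ACS against PRP lysate, and 0 in the other comparisons. edgeR called 0 in all 7 comparisons, and DESeq2 called 1, IRS2, in ACS against IL-1ß. IRS2, an adaptor of the IL-4 receptor that was singled out after its values were seen, was 2.33 ± 0.662 (SE) higher on the log2 scale there, with an adjusted p of 0.0774 in limma. Its IL-1ß libraries, from lowest to highest, lay at 9.30, 45.6 and 84.1 CPM. Without IL-1ß replicate 3 the log2 fold change was 1.46 ± 0.510, a fold of 2.75 in place of 5.03 on the CPM + 1 scale, with an adjusted p of 0.199. It was called without IL-1ß replicate 1 (2.98, adjusted p 0.0209 in limma) and without the 3 libraries apart (1.46, 0.0301). In ACS against MSC-CM IRS2 was at 1.40 ± 0.662 with an adjusted p of 0.387 in limma, and was called with only these 2 groups in the fit (adjusted p 0.0293). CISH, a feedback inhibitor induced by STAT factors and also singled out afterwards, passed the adjusted p but not the 2-fold limit. Its log2 fold change against IL-1ß was 0.83 ± 0.156 (adjusted p 0.00715 in limma) for PRP lysate and 0.72 ± 0.156 (0.0242) for ACS, and against MSC-CM 0.87 (0.006) and 0.77 (0.0251). DUSP1, a phosphatase of MAP kinases, did so in PRP lysate against IL-1ß alone, at 0.61 ± 0.161 with an adjusted p of 0.0458. STAT6, the factor that carries the signal, averaged 203 ± 13.6 CPM (SD, n = 3) in untreated macrophages and 176 ± 49.6 CPM after IL-1ß. Its means were 197 ± 16.9 CPM under MSC-CM, 177 ± 51.5 CPM under PRP lysate and 212 ± 11.8 CPM under ACS. These spreads overlapped.

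RNA of both ligands was present in these cultures. At the protein level, the study found IL-13 below the detection limit in the culture supernatants. IL-4 protein was measurable there, without a statistical difference between OT groups. IL13 averaged 17.6 ± 2.99 CPM (SD, n = 3) in untreated macrophages, 18.6 ± 1.24 after IL-1ß and 14.99 ± 5.24 under MSC-CM. It averaged 52.9 ± 10.9 CPM under PRP lysate and 47.3 ± 2.83 CPM under ACS. It was called higher with PRP lysate than with IL-1ß (log2 fold change 1.44 ± 0.217 SE) and higher with ACS than with IL-1ß (1.30 ± 0.217). Against MSC-CM it was called higher with PRP lysate (1.78 ± 0.217) and with ACS (1.64 ± 0.217). No call of IL13 was lost when a single library was left out. The call for PRP lysate against IL-1ß was lost with only those 2 groups in the fit. IL4 averaged 4.31 ± 0.642 CPM untreated and 6.05 ± 0.458 with IL-1ß. Among the OTs its mean was 4.85 ± 1.85 CPM under MSC-CM, 9.93 ± 0.970 under PRP lysate and 8.88 ± 1.31 under ACS. It was called in 0 of the 7 comparisons in limma. In PRP lysate against MSC-CM its log2 fold change was 0.94 ± 0.213 (SE) with an adjusted p of 0.0233 in limma, under the 2-fold limit. It was called there in DESeq2, with a pseudocount of 0.1, with RLE or TMM factors, without MSC-CM replicate 1 (1.19) and without the 3 libraries apart (1.11). It was also called in ACS against MSC-CM without MSC-CM replicate 1 or without the 3 libraries apart (1.04 each, against 0.79 ± 0.213 with all libraries). T cells are the usual source of both cytokines, and the summed level of 17 of 19 T and NK cell genes was 1815 to 3026 CPM with IL-1ß, 1547 to 3434 CPM with PRP lysate and 1503 to 1953 CPM with ACS. It was 1384 to 1888 CPM in untreated macrophages and 2408 to 2479 CPM with MSC-CM. The part of T cells in the levels of IL4 and IL13 was not tested.

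PPARG, a nuclear receptor of lipid metabolism and alternative activation (ENSECAG00000016664, chromosome 16, 6310374 to 6697748), was at 64.4, 65.0 and 67.2 CPM in untreated macrophages. With IL-1ß alone it was at 53.3, 48.8 and 46.5 CPM. The other 9 libraries lay between 38.0 and 53.9 CPM, so none of the 12 libraries with IL-1ß reached the untreated level. The mean with IL-1ß was 0.755 of the untreated mean. The log2 fold change was -0.40 ± 0.124 (SE), with a 95% interval of -0.67 to -0.13, an unadjusted p of 0.00674 and an adjusted p of 0.203 in limma, which did not pass. Groups without overlap were common in this comparison, at 16.2% of all genes tested. Over 16 alternative settings the log2 fold change stayed between -0.45 and -0.34, and the adjusted p between 0.128 and 0.682.

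Among the OTs, PPARG with PRP lysate (45.1, 42.1 and 38.0 CPM) lay below IL-1ß alone without overlap. MSC-CM held 48.0, 53.9 and 45.4 CPM and ACS 43.3, 43.7 and 51.3 CPM. The log2 fold change of PRP lysate against IL-1ß was -0.24 ± 0.124 (SE), with a 95% interval of -0.51 to 0.03, and was not called.

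MRC1, the mannose receptor of macrophages (ENSECAG00000010728, chromosome 29, 18703005 to 18792802), was at 2296, 3203 and 1519 CPM in untreated macrophages and at 3394, 2291 and 1152 CPM with IL-1ß. MSC-CM gave 2399, 2099 and 2503 CPM, PRP lysate 515.5, 1565 and 2074 CPM, and ACS 2591, 2415 and 1612 CPM. The IL-1ß libraries alone included the highest of all 15 and, after PRP lysate replicate 1, the next to lowest. The mean with PRP lysate was 1385 ± 795 CPM (SD, n = 3) against 2279 ± 1121 CPM for IL-1ß alone. The log2 fold change was -0.81 ± 0.48 (SE), with a 95% interval of -1.84 to 0.23 and an adjusted p of 0.43 in limma. It was -0.63 ± 0.311 without the 3 libraries apart, with an adjusted p of 0.236. Single libraries moved it further, to -0.21 without PRP lysate replicate 1 and -0.45 without IL-1ß replicate 1, and to -1.23 without IL-1ß replicate 3 and -1.21 without PRP lysate replicate 3, and 0 of these fits called it. For IL-1ß against untreated the log2 fold change of MRC1 was -0.11, and 0.32 without those libraries.

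MRC1 and IL13RA1 followed each other from library to library. Pearson's r of their log2(CPM + 1) was 0.946 over 15 libraries and 0.840 over the 12 that did not stand apart. This is a description, since libraries share conditions and composition. Both genes were lowest in PRP lysate replicate 1 and IL-1ß replicate 3, and these 2 libraries had the highest summed T and NK cell level, 3434 and 3026 CPM, against 1384 to 2479 CPM in the other 13. Of that list of 19 genes, 17 were listed and 16 averaged at least 1 CPM, and CD3E, CD2, LCK and ZAP70 were among its abundant members. The part of lymphocyte RNA in the levels of MRC1 and IL13RA1 was not tested.

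**Figure D2:**
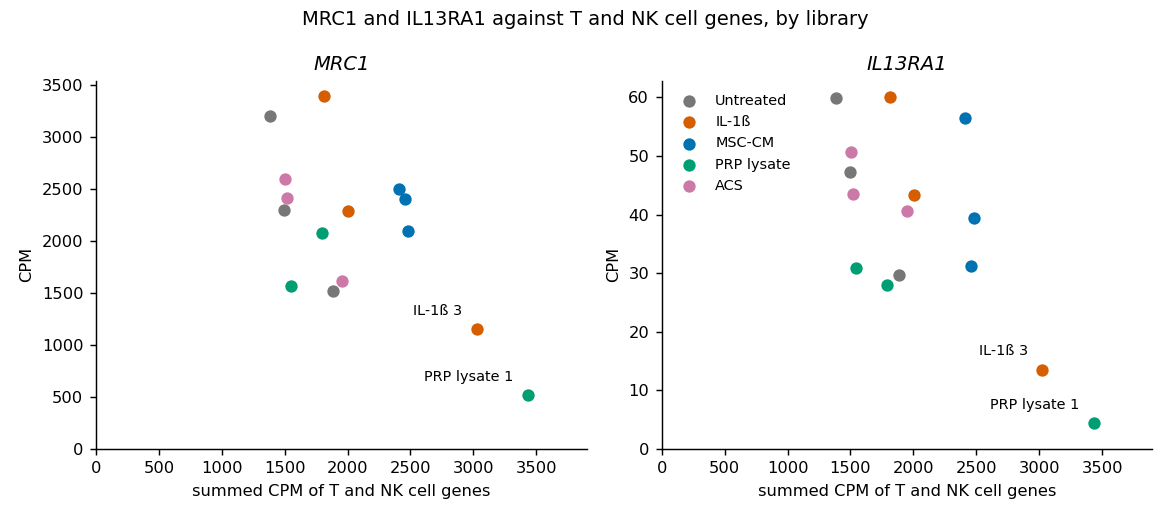
CPM of MRC1 and IL13RA1 (y axes) against the summed CPM of 17 T and NK cell genes (x axis), 1 point per library, colored by condition. IL-1ß replicate 3 and PRP lysate replicate 1 have the highest T and NK cell sums, 3026 and 3434 CPM, and the lowest levels of both members.

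TGM2, tissue transglutaminase, cross-links proteins and is a conserved marker of macrophages exposed to IL-4 (ENSECAG00000006290, chromosome 22, 29270953 to 29302728). It was at 1386, 1417 and 1143 CPM untreated, at 1455, 1549 and 1102 CPM with IL-1ß, and at 1596, 1429 and 1316 CPM with MSC-CM. With PRP lysate it was at 449, 528 and 417 CPM, and with ACS at 1944, 1975 and 1317 CPM. The highest PRP lysate library lay below the lowest library of every other condition, and neighbours in the order of the other 4 means overlapped.

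Against IL-1ß alone, TGM2 with PRP lysate was 0.339 of the mean, a log2 fold change of -1.55 ± 0.180 (SE) with a 95% interval of -1.94 to -1.16 and an adjusted p of 0.000309 in limma. It ranked 37 of 11628 genes by p. Against MSC-CM the log2 fold change was -1.64 ± 0.180, with an adjusted p of 0.000286 and rank 21. ACS against PRP lysate gave 1.89 ± 0.180, with an interval of 1.502 to 2.28 and an adjusted p of 0.00116, and TGM2 had the smallest p of all genes there. With only these 2 groups in the fit this call was lost, at the same fold change and an adjusted p of 0.0931 in limma, while the calls against IL-1ß and MSC-CM were kept. ACS against IL-1ß gave 0.34 ± 0.180, with an interval of -0.05 to 0.73, and IL-1ß against untreated gave 0.05 ± 0.180, with an interval of -0.34 to 0.44. Neither of these was called.

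The call of TGM2 did not rest on the libraries that stood apart. Without them the log2 fold change was -1.68 ± 0.189 (SE) for PRP lysate against IL-1ß, -1.55 ± 0.189 against MSC-CM and 1.87 ± 0.172 for ACS against PRP lysate, each called in limma. Within the PRP lysate group, the library highest in T and NK cell genes and those at 1547 and 1794 CPM had TGM2 levels of 449, 528 and 417 CPM. Of 15 macrophage markers tested, MRC1 included, 14 were lower with PRP lysate than with IL-1ß, 6 were called lower and 0 higher, with a median log2 fold change of -1.08. In PRP lysate against MSC-CM 4 of the 15 were called lower, and in ACS against PRP lysate 2 were called higher and 0 lower. In ACS against IL-1ß 12 of the 15 were lower, with 2 called lower, 0 higher and a median of -0.29, where TGM2 was at 0.34. In ACS against MSC-CM 11 were lower, with 2 called lower and a median of -0.27, where TGM2 was at 0.25. Endothelial cells make TGM2 too, and 15 of 16 stromal and endothelial genes summed to 138 to 141 CPM with PRP lysate, 292 to 551 CPM with IL-1ß and 163 to 191 CPM with ACS. That sum is mostly PECAM1, which averaged 219 CPM and is also made by leukocytes. Of the 6 genes of that list tested, 5 were higher and 1 lower with PRP lysate than with IL-1ß (median 0.49, 0 called higher and 1 lower), and 4 were higher and 2 lower with ACS (median 0.19, 0 called higher and 1 lower), where TGM2 was not lower. The part of either cell type in the TGM2 result was not tested.

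**Figure D3:**
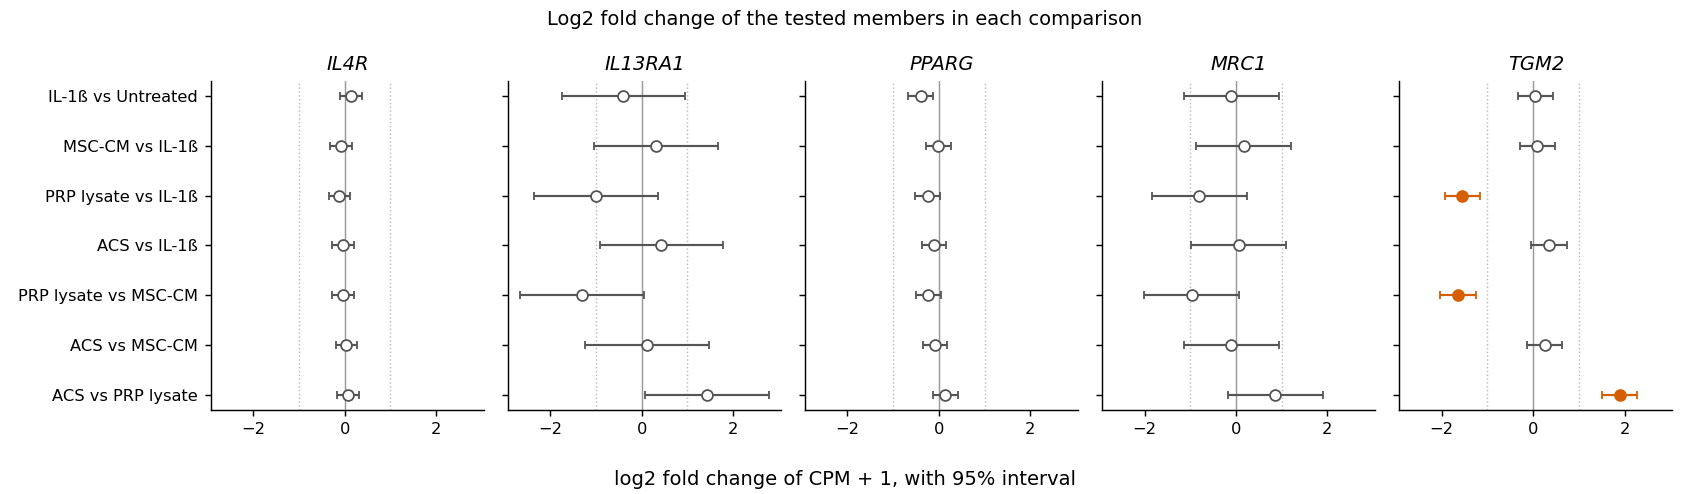
Log2 fold change of CPM + 1 (x axis) of the 5 tested members in 7 comparisons (y axis), with 95% intervals. Filled orange points were called, and dotted lines mark a 2-fold change. Only the TGM2 panel holds called points, the 3 comparisons that involve PRP lysate, at -1.55, -1.64 and 1.89.

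Members called are set here beside the share of all genes called. In IL-1ß against untreated 0 of 5 tested members were called, where 0.292% of all genes tested were (0.138% higher and 0.155% lower). In limma 1 member, PPARG, had an unadjusted p of at most 0.05 there, and DESeq2 and edgeR called 0 members. In MSC-CM against IL-1ß 0 of 5 members were called and 0% of all genes, in either direction. At an unadjusted p of at most 0.05 and a 2-fold change it was 0 members and 0.361% of all genes, and DESeq2 and edgeR called 0 members. No tested member parted these groups without overlap, against 8.79% of all genes.

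In PRP lysate against IL-1ß 1 of 5 members was called, TGM2, against 3.09% of all genes (1.07% higher and 2.02% lower). TGM2 and PPARG had groups that did not overlap, against 15% of all genes. In ACS against IL-1ß 0 of 5 were called in limma and edgeR (DESeq2 called 1 low member, ALOX15), and 0 had an unadjusted p of at most 0.05, while 2.21% of all genes were called (1.23% higher and 0.98% lower) and 26.2% parted the groups, with 0 of the tested members among them. In PRP lysate against MSC-CM 1 of 5 was called, again TGM2, against 2.61% of all genes (0.8% higher and 1.81% lower). With the replicate number as a block TGM2 was called at -1.64 in either fit tried, while calls over all genes moved both ways. In the 6 MSC-CM and PRP lysate libraries alone, the groups whose numbers were taken as pairs, they were 406 with the block and 167 without it. In the 12 libraries other than ACS, where the block also ties untreated and IL-1ß libraries to these numbers, they were 171 with it and 238 without it. There 4 of the 5, TGM2, PPARG, MRC1 and IL13RA1, lay lower with PRP lysate without overlap, against 19.4% of all genes in either direction.

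In ACS against MSC-CM 0 of 5 were called in limma, DESeq2 and edgeR, and 0 had an unadjusted p of at most 0.05, where 1.23% of all genes were called (0.593% higher and 0.636% lower) and 35.1% parted the groups. In ACS against PRP lysate TGM2 was 1 of 11 genes called among 11628, or 0.0946%, all of them higher with ACS (0.0946% higher and 0% lower). TGM2 and IL13RA1 parted these groups, against 15.6% of all genes. The median log2 fold change of the 5 members was -0.81 in PRP lysate against IL-1ß and -0.97 against MSC-CM, beside medians of 0.11 and -0.09 over all genes tested. Both are the value of MRC1, which was not called, and they rest in part on PRP lysate replicate 1. Without that library the medians over members were -0.21 and -0.37, beside 0.14 and -0.04 over all genes, and without the 3 libraries apart -0.63 and -0.35. The first was also -0.45 without IL-1ß replicate 1 and -1.23 without IL-1ß replicate 3. In ACS against IL-1ß it was 0.06, beside 0.13 over all genes, and changed sign when single libraries were left out (-0.15 to 0.39).

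The other 3 members with a row, ALOX15, FCER2 and F13A1, averaged under 1 CPM and did not enter the main test. ALOX15 makes lipid mediators from arachidonic acid and is strongly induced by IL-4 in human monocytes (ENSECAG00000038698, chromosome 11, 50162697 to 50171247). It had 8, 15 and 10 reads in the untreated libraries and 6, 0 and 0 with IL-1ß. It had 12, 10 and 10 reads with MSC-CM, 28, 16 and 4 with PRP lysate, and 23, 22 and 45 with ACS. ACS was above IL-1ß, MSC-CM and untreated in every library, and IL-1ß was below untreated, MSC-CM and ACS.

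Summed over 3 libraries, ALOX15 had 6 reads with IL-1ß, or 0.0598 CPM with an exact Poisson 95% interval of 0.0220 to 0.130, and 90 reads with ACS, or 0.735 CPM with an interval of 0.591 to 0.903. These intervals cover counting error only. A count of 0 reads allows up to 0.0848 CPM in IL-1ß replicate 2 and 0.104 CPM in replicate 3. DESeq2 on the reads called ALOX15 higher with ACS than with IL-1ß, by 3.55 ± 0.968 (SE) on the log2 scale with an adjusted p of 0.00823. It also called PRP lysate against IL-1ß, at 2.88 ± 0.979 with an adjusted p of 0.0456. edgeR on the same reads called neither, with adjusted p of 0.114 and 0.189. Eosinophils are another source of ALOX15, and 8 of 16 eosinophil, basophil and mast cell genes summed to 20.1 to 31.4 CPM with IL-1ß and to 11.7 to 15.3 CPM with ACS. Most of that sum was FCER1A, at 10.06 CPM on average, with EPX at 0 to 1.11 CPM and CCR3 at 0 to 0.778 CPM. The part of eosinophils in the ALOX15 reads was not tested.

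FCER2, the low-affinity IgE receptor CD23 that IL-4 induces on B cells and monocytes (ENSECAG00000009646, chromosome 7, 5474820 to 5484618), had 9, 12 and 11 reads untreated and 14, 16 and 41 with IL-1ß. It had 21, 45 and 15 reads with MSC-CM, 8, 10 and 13 with PRP lysate and 35, 48 and 74 with ACS. In CPM, ACS (0.955 to 1.54) lay above PRP lysate (0.215 to 0.458) without overlap, while ACS and IL-1ß (0.389 to 1.42) overlapped. DESeq2 gave ACS against PRP lysate a log2 fold change of 2.04 ± 0.684 (SE) and an adjusted p of 0.219, and edgeR an adjusted p of 0.799. Of 16 B cell genes 14 were summed, at 134 to 138 CPM with ACS, 113 to 128 CPM with PRP lysate and 147 to 167 CPM with IL-1ß. MS4A1 averaged 3.10 CPM over all libraries, and the part of B cells in the FCER2 reads was not tested.

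F13A1, the A subunit of coagulation factor XIII and a transglutaminase like TGM2 (ENSECAG00000008295, chromosome 20, 6767924 to 6923695), had 6 reads in untreated replicate 1, 8 reads in IL-1ß replicate 1 and 0 reads in the other 13 libraries. A count of 0 allows up to 0.0626 CPM in ACS replicate 3 and 0.106 CPM in PRP lysate replicate 3, the libraries with the most and the fewest reads. No difference in F13A1 was detectable at this depth. Platelets carry F13A1, and 14 of 17 platelet and megakaryocyte genes summed to 136 to 397 CPM with PRP lysate and 60.9 to 206 CPM with IL-1ß. Most of the sum was ITGB3 at 195 CPM, which macrophages also make, with SELP at 16.9, PPBP at 11.4, TREML1 at 1.99 and ITGA2B at 1.92 CPM on average, and GP9 and TUBB1 below 1 CPM in every library.

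**Figure D4:**
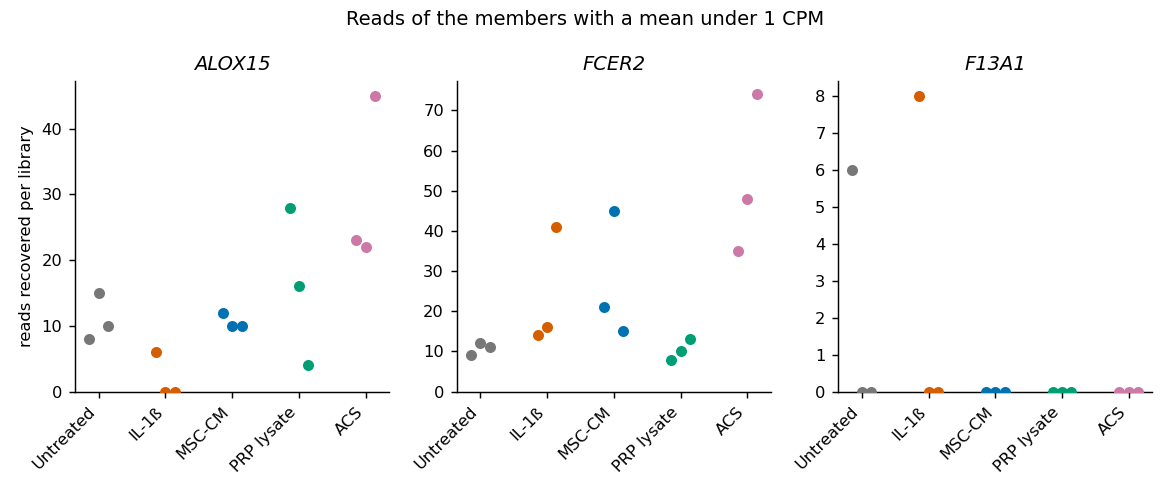
Reads recovered per library (y axis, from 0) for ALOX15, FCER2 and F13A1, by condition (x axis). Points are libraries. ALOX15 and FCER2 reach 45 and 74 reads with ACS, and F13A1 is at 0 in 13 of 15 libraries.

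The wider list of alternative activation genes held 47 genes, of which 31 were tested, 3 of them members (MRC1, TGM2 and PPARG). PRP lysate against IL-1ß called 2 higher and 5 lower, with a median log2 fold change of -0.22 beside 0.11 over all genes tested. The higher pair were the chemokines CCL22 (2.67 ± 0.288 SE) and CCL17 (2.41 ± 0.459), which attract Th2 cells. The largest falls were the haptoglobin-hemoglobin scavenger CD163 (-5.50 ± 0.389), the scavenger receptor STAB1 (-2.66 ± 0.531) and the protease CTSC (-2.23 ± 0.138). TGM2 fell with this second set. The list thus held members that moved in opposite directions.

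ACS against IL-1ß called 5 of the 31 higher and 3 lower, with a median of 0.10 beside 0.13 over all genes. CCL22 (3.36 ± 0.288 SE), CCL17 (2.62 ± 0.459) and the matrix gene FN1 (2.14 ± 0.426) rose most. CD163 (-3.12 ± 0.389), STAB1 (-2.18 ± 0.531) and the eosinophil-attracting chemokine CCL24 (-1.94 ± 0.414) fell most. TGM2 was not called there. Of 6 fits that each left out 1 library, FN1 lost its call in 2 (without ACS replicate 2 or 3). STAB1 and CCL24 lost theirs in 5 each, all but the fit without IL-1ß replicate 1. ACS against PRP lysate called 3 of the 31 higher, CD163 (2.39 ± 0.389), TGM2 (1.89 ± 0.180) and CTSC (1.29 ± 0.138), of which CD163 lost its call in 5 of 6 such fits, all but that without ACS replicate 3, and TGM2 and CTSC in 0. In MSC-CM against IL-1ß and in IL-1ß against untreated 0 of the 31 were called by limma. There were 0 and 3 at an unadjusted p of at most 0.05 and a 2-fold change, 0 and 1 in DESeq2, and 0 and 0 in edgeR. Without the 3 libraries apart limma called 0 and 2.

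**Figure D5:**
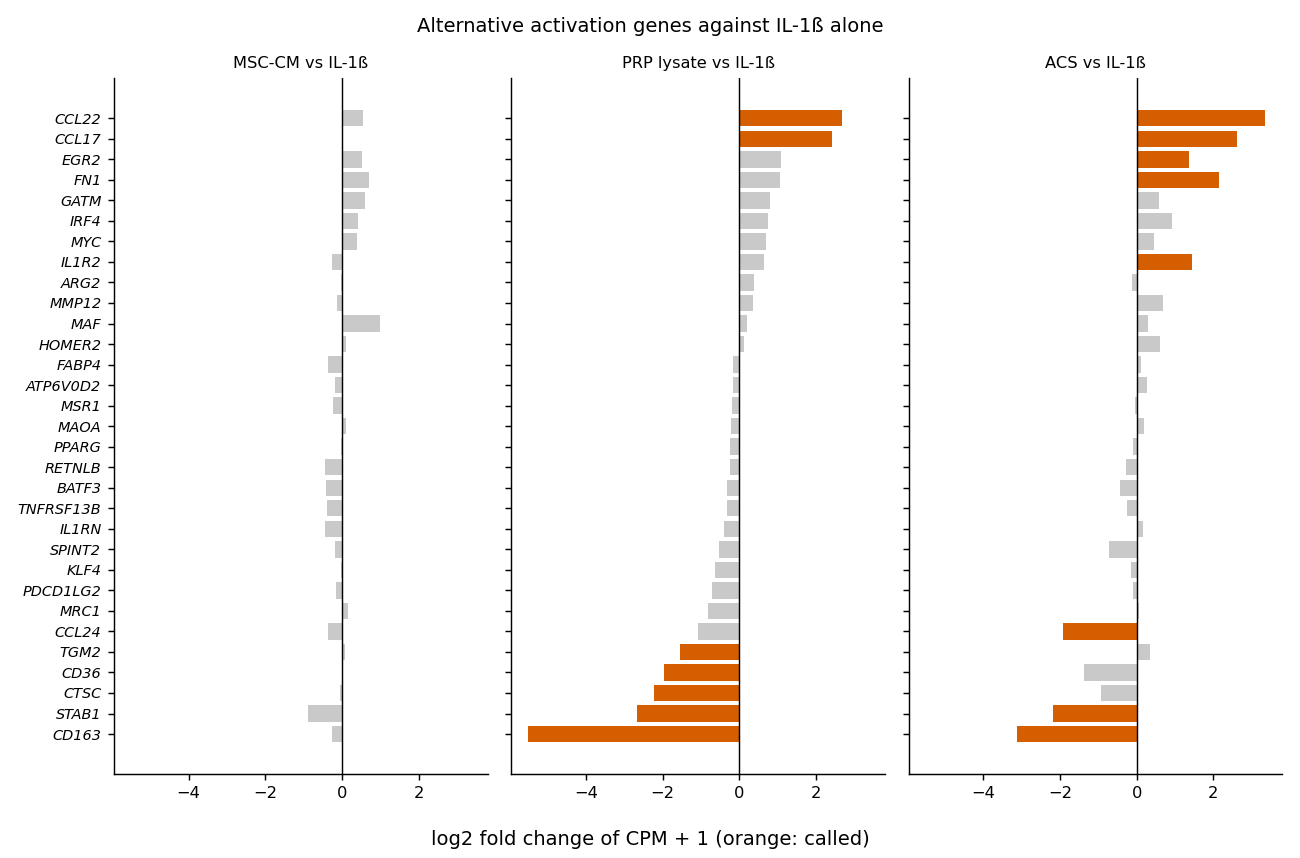
Log2 fold change of CPM + 1 (x axis) of 31 tested alternative activation genes (y axis, ordered by PRP lysate against IL-1ß) for each OT against IL-1ß alone. Orange bars were called. PRP lysate has 7 called genes with TGM2 among the 5 lower ones, ACS has 8 without TGM2, and MSC-CM has 0.

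PRP lysate against MSC-CM called 2 of these genes higher and 4 lower. CCL17 (2.41 ± 0.459 SE) and CCL22 (2.14 ± 0.288) were higher, and CD163 (-5.25 ± 0.389), CTSC (-2.18 ± 0.138) and the fatty acid receptor CD36 (-1.98 ± 0.448) were the lowest. The call of CCL17 was lost without MSC-CM replicate 3, and that of CD36 without MSC-CM replicate 2 or 3. Both were called with the block in the 6 libraries of these groups (adjusted p 0.000969 and 0.00491 in limma) and neither with the block in 12 libraries (0.0602 and 0.1). ACS against MSC-CM called 3 higher and 1 lower. CCL22 (2.82 ± 0.288), CCL17 (2.63 ± 0.459) and the IL-1 decoy receptor IL1R2 (1.71 ± 0.237) were higher and CD163 (-2.86 ± 0.389) was lower. CCL17 lost this call without MSC-CM replicate 3, ACS replicate 1 or ACS replicate 2.

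Genes known as targets of PPARG were read beside PPARG itself, and 24 of 27 were tested. PRP lysate against IL-1ß called 1 higher and 3 lower, with a median log2 fold change of -0.15. ANGPTL4, an inhibitor of lipoprotein lipase, rose by 1.75 ± 0.300 (SE). CD36 (-1.95 ± 0.448), the phospholipid transfer protein PLTP (-1.58 ± 0.312) and the sterol exporter ABCG1 (-1.36 ± 0.305) fell. CD36 was not called without IL-1ß replicate 1 or 2, and ABCG1 not without either of these or PRP lysate replicate 1. With only these 2 groups in the fit 0 of the 4 were called. In PRP lysate against MSC-CM the same 4 genes were called in the same directions, ANGPTL4 at 2.37 ± 0.300 and CD36 at -1.98 ± 0.448. PLTP was not called there without MSC-CM replicate 3 or PRP lysate replicate 2. All 4 were called with the replicate block in the 6 libraries of these groups, and ANGPTL4 and ABCG1 alone with the block in 12 libraries. Both comparisons share the PRP lysate libraries. With ACS the 4 genes lay on the same sides. Against IL-1ß 0 of the 24 were called in limma, with CD36 at -1.38 ± 0.448, PLTP at -1.06 ± 0.312, ABCG1 at -1.01 ± 0.305 and ANGPTL4 at 0.85 ± 0.300, but 6 had an unadjusted p of at most 0.05 and a 2-fold change, DESeq2 called 6 and edgeR 1, and 4 were called without the 3 libraries apart. ACS against MSC-CM called ANGPTL4 higher (1.46 ± 0.300) and ABCG1 lower (-1.46 ± 0.305), calls lost in 5 and 6 of 6 fits without a library, while with only those 2 groups in the fit 5 were called. In ACS against PRP lysate 0 of the 24 were called by limma, DESeq2 and edgeR, with 1 at an unadjusted p of at most 0.05 and a 2-fold change. In IL-1ß against untreated, where PPARG itself was 0.755 of its mean, 0 of the 24 targets were called in limma, DESeq2 and edgeR, with 1 at an unadjusted p of at most 0.05 and a 2-fold change. Without the 3 libraries apart limma called 1 target there.

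The gene families of the enzyme members are small, so 1 call is a large share of those tested. Of 10 transglutaminases 4 were tested, and TGM2 was the only one called, 1 of 4 in PRP lysate against IL-1ß beside 3.09% of all genes. TGM1, the keratinocyte enzyme, averaged 68.1 ± 13.05 CPM (SD, n = 3) after IL-1ß and 56.9 ± 7.79 CPM under PRP lysate, a log2 fold change of -0.25 ± 0.158 (SE). TGM3, an epidermal relative, had a log2 fold change of 0.38 ± 0.188 in the same comparison. In PRP lysate against MSC-CM TGM3 was higher by 0.997 ± 0.188 with an adjusted p of 0.00821 in limma, just under the 2-fold limit. There 2 of the 4 were called with RLE factors, in DESeq2, in edgeR and without the 3 libraries apart, and 2 were called without those libraries in PRP lysate against IL-1ß. Of 9 lipoxygenase pathway genes 6 were tested, and 1 was called in ACS against IL-1ß, beside 2.21% of all genes. It was ALOX15B, a relative of ALOX15, which was lower with ACS (-1.66 ± 0.380), a call lost in 5 of 6 fits without a library, all but that without IL-1ß replicate 1. Its mean was 6.71 ± 1.38 CPM (SD, n = 3) after IL-1ß and 1.48 ± 0.675 CPM under ACS, while ALOX15 itself had more reads with ACS than with IL-1ß.

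Of 18 genes of arginine and polyamine metabolism, the pathway of ARG1, 14 were tested, and 3 were called in PRP lysate against IL-1ß, beside 3.09% of all genes. With only the 2 groups in the fit 1 of these, SAT1, was called. SAT1, which degrades polyamines, fell with PRP lysate (-1.42 ± 0.163 SE) and with ACS (-1.15 ± 0.163) against IL-1ß. With PRP lysate ASS1, which remakes arginine, fell by 1.13 ± 0.218, and ODC1, which starts polyamine synthesis, rose by 1.05 ± 0.167, a call lost without IL-1ß replicate 3 or PRP lysate replicate 3. ARG2, the mitochondrial arginase, averaged 86.9 ± 9.29 CPM (SD, n = 3) after IL-1ß and 114 ± 10.4 CPM under PRP lysate and was not called (0.38 ± 0.131 SE). Among 25 macrophage and dendritic lectins 10 were tested, MRC1 included. PRP lysate against IL-1ß called CLEC1A (-1.71 ± 0.276) and CLEC6A (-1.08 ± 0.271) lower and 0 higher. The call of CLEC6A was lost in 5 of 6 fits, all but that without PRP lysate replicate 2. With only the 2 groups in the fit neither CLEC1A nor CLEC6A was called. Against MSC-CM CLEC1A (-1.81 ± 0.276) and MRC2, a collagen receptor related to MRC1 (-1.10 ± 0.277), were called lower, and MRC2 lost its call in 5 of 6 fits, again all but that without PRP lysate replicate 2. MRC2 was called with the block in the 6 libraries of these groups (adjusted p 0.0242 in limma). It was not called with the block in 12 libraries (0.135) or with only the 2 groups in the fit (0.143).

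Classical activation genes were read for contrast, and 25 of 31 were tested. PRP lysate against IL-1ß called 2 higher, TNF (1.99 ± 0.270 SE) and the costimulatory receptor CD40 (1.29 ± 0.183), and 2 lower, IL6 (-2.55 ± 0.508) and the chemokine CXCL11 (-1.90 ± 0.392). ACS against IL-1ß called CD40 (1.52 ± 0.183) and TNF (1.39 ± 0.270) higher and IL6 (-2.12 ± 0.508) lower. CXCL11 lost its call without IL-1ß replicate 2, and in the ACS comparison TNF lost its call without IL-1ß replicate 2, ACS replicate 2 or ACS replicate 3. IL6 lost its call there without any of these or IL-1ß replicate 3. In IL-1ß against untreated CXCL10 was called lower (-1.56 ± 0.303), a call lost in 6 of 6 fits without a library. With only the 2 groups in the fit 1 classical gene was called in each of these comparisons, TNF in PRP lysate and CD40 in ACS, both higher. Against MSC-CM, PRP lysate had CD40 (1.28 ± 0.183), TNF (1.84 ± 0.270) and the chemokine CCL5 (1.17 ± 0.288) called higher and IDO1, which breaks down tryptophan, called lower (-1.01 ± 0.189). CCL5 lost its call in 5 of 6 fits without a library, all but that without MSC-CM replicate 1, and IDO1 without MSC-CM replicate 2 or PRP lysate replicate 2. Both were called with the block in the 6 libraries of these groups (adjusted p 0.00387 and 0.024 in limma). Neither was called with the block in 12 libraries (0.147 and 0.0596) or with only the 2 groups in the fit (0.0888 and 0.105).

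The genes with a symbol whose log2(CPM + 1) was most like that of TGM2 over 15 libraries were C1S (Pearson's r = 0.908), CLEC1A (0.893) and ALDH2 (0.879). C1S is a complement protease, CLEC1A a C-type lectin and ALDH2 a mitochondrial aldehyde dehydrogenase. Over the 12 libraries that did not stand apart the values of r were 0.876, 0.848 and 0.846. All 3 shared the low PRP lysate group. C1S averaged 18.7 ± 2.63 CPM (SD, n = 3) after IL-1ß, 9.45 ± 2.09 with PRP lysate and 20.3 ± 0.516 with ACS. CLEC1A averaged 19.7 ± 6.02, 5.40 ± 2.35 and 15.3 ± 2.64 CPM in the same order, and ALDH2 146 ± 12.4, 92.8 ± 7.73 and 144 ± 5.79 CPM. Among the tested members themselves, the r of TGM2 was 0.646 with IL13RA1, 0.629 with MRC1, 0.393 with PPARG and 0.170 with IL4R. Over the 12 libraries these values were 0.700, 0.459, 0.382 and 0.448.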

How the data were processed

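RNA of 15 libraries was enriched with oligo(dT) and sequenced as paired reads of TruSeq libraries. The authors trimmed reads at a Phred score of 20, aligned them with STAR 2.7.3 to EquCab3.0, counted them with HTseq on Ensembl 107 in Partek Flow 10.0 and deposited CPM for 16932 protein-coding genes. The strand setting is not given in the sources used here, so overlapping or antisense genes are uncertain. Columns were matched to samples by their headers, with 0 left unmatched.

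Here, 11628 genes passed a minimum mean of 1 CPM and entered limma 3.58.1 with an intensity trend on log2(CPM + 1), in 1 model of 5 conditions without a replicate block. The pseudocount of 1 shrinks the changes of low genes. Whole reads were recovered from the CPM steps (99.7% of values whole within 0.1 read) for DESeq2 1.42.0 and edgeR 4.0.16. R 4.3.3, Python 3.11.15 and matplotlib 3.10.9 were used. The fitting code was tested on simulated data. Libraries held 28410735 to 47894077 reads, so 1 read was 0.0209 to 0.0352 CPM. The members, lists and tests were chosen with earlier results of these data known. Named genes are all members, the genes of each pathway list with the 3 largest rises and 3 largest falls called in a comparison, the 3 genes most correlated with a called member, and markers that define a cell type whose level moves with a member. Pathway genes outside this rule (IRS2, CISH, DUSP1, STAT6, IL4, ARG2, TGM1 and TGM3), and markers given only for their level, were named for their role or after their values were seen. Alternatives were a pseudocount of 0.1, no filter, RLE and TMM factors, DESeq2, edgeR, only the 2 groups compared, a replicate block, no fold threshold and leaving out libraries. No lengths were used, so levels are not compared between genes. Sequences were not used here. The labels give replicate numbers to all groups but ACS. Deviations of same-numbered MSC-CM and PRP lysate libraries correlated at 0.635, 0.255 and 0.419. Differently numbered ones reached 0.47 (MSC-CM replicate 3 with PRP lysate replicate 2) and 0.388 (MSC-CM replicate 2 with PRP lysate replicate 3). The remaining ones lay between -0.596 and -0.365. These correlations do not settle which libraries are pairs. The numbers were taken as pairs there since the products share donors per the study's methods, although the labels do not tie a number to a horse.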

Additional observations from a re-analysis of the deposited data

How the results depend on the processing

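The count of members called over the 7 comparisons was the same in 111 recomputed values and differed in 3. DESeq2 on the reads called 2 members in PRP lysate against IL-1ß (ALOX15 beside TGM2) and 1, ALOX15, in ACS against IL-1ß. Only the 2 groups in the fit left 0 members in ACS against PRP lysate, where TGM2 kept its log2 fold change of 1.89 with an adjusted p of 0.0931 in limma. This fit estimates the spread from 6 libraries. Leaving out each library in turn changed no count of members, with log2 fold changes of TGM2 between -1.70 and -1.45 for PRP lysate against IL-1ß, -1.74 and -1.57 against MSC-CM, and 1.79 and 2.08 for ACS against PRP lysate. Of 32 pairs of a tested member and a comparison that were not called, 14 changed sign under at least 1 alternative and 0 were called under any. The 18 pairs of libraries with the same replicate number correlated between r = -0.775 and 0.635, with 11 over 0.1, so outside MSC-CM and PRP lysate the numbers were not taken as pairs. The replicate block, in the 12 libraries other than ACS, called 0, 0, 1 and 1 members in IL-1ß against untreated, MSC-CM against IL-1ß, PRP lysate against IL-1ß and PRP lysate against MSC-CM, the same as without it, and it called 1 in the 6 MSC-CM and PRP lysate libraries alone. This fit and the unblocked fit of the 12 libraries were chosen after seeing the data. With only the 2 groups in the fit, the alternative activation genes called were 4, 2, 5, 8 and 0 in place of 7, 8, 6, 4 and 3 in PRP lysate against IL-1ß, ACS against IL-1ß, PRP lysate against MSC-CM, ACS against MSC-CM and ACS against PRP lysate. Calls over all genes varied more. They ran from 0 to 173 in IL-1ß against untreated (34 in the report), 0 to 2 in MSC-CM against IL-1ß (0), 56 to 694 in PRP lysate against IL-1ß (359), 48 to 705 in ACS against IL-1ß (257), 167 to 572 in PRP lysate against MSC-CM (304), 53 to 323 in ACS against MSC-CM (143) and 0 to 61 in ACS against PRP lysate (11). The cause was not tested. Depth limits ALOX15, FCER2 and F13A1, which had at most 74 reads in a library.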
